A study of Mus musculus with 10 samples.

Results

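The cornified envelope and epidermal barrier genes are 36 genes of the outer skin layers, taken by symbol from the platform annotation without the keratins, the Sprr family, the claudins and the desmosome genes. All 36 were on the array, and each was read by its probe set with the highest mean, among 14087 genes tested. They were measured in medullary thymic epithelial cells (mTECs) sorted as CD45-, EpCAM+ and CD80hi from the thymus of C57BL/6 mice aged 3 weeks. The groups were 5 arrays of Fezf2 KO cells, KO 6 to KO 10, and 5 arrays of wild-type cells, WT 1 to WT 5, named by their title numbers. Fezf2 is a zinc finger transcription factor of these cells. The deleted part of the gene, any Cre driver, and whether each array came from a mouse of its own are not given in the labels, so p-values cover array-to-array spread alone, some of which may be technical.

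In the epidermis, keratinocytes that leave the basal layer build a cornified envelope: plakins, involucrin and loricrin are cross-linked by transglutaminases under the plasma membrane, and ceramides are attached to its outer face. Proteases and their inhibitors then set the pace at which dead cells are shed. In the thymic medulla some mature mTECs switch on parts of the same programme late in life, and cornified structures called Hassall's corpuscles contain such cells.

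In the deleted gene itself, Fezf2, signals were 13.8, 18.3, 13.2, 12.1 and 17.7 on KO 6 to KO 10, against 5239.8, 5054, 5895, 5432 and 5757 on WT 1 to WT 5, so it was low on every array labelled KO. KO 6 and WT 1 stood apart from the rest in control probes. Their poly-A spike-in means were 694 on KO 6 and 490 on WT 1, against 106 to 389.7 on the other arrays, and their 18S rRNA means were 3762 and 3445, against 765 to 1774. The signal of Xist, the RNA that coats a silenced X chromosome, was 26.9 on KO 6, 30.0 on KO 8 and 21.1 on WT 2, and 5304 to 6100 on the others. Of 12 mTEC markers 1, Tnfrsf11a, was higher in KO and 3 were lower, namely Fezf2, Ly75 and Aire. Together 33.3% were called, against 29.2% of all genes tested, and 1 of the 3 lower was the deleted gene itself. Aire lost its call without WT 3 (adjusted p = 0.0616), WT 4 (0.0643) or WT 5 (0.0683), and Ly75 without WT 4 (0.0607) or WT 5 (0.0583). Fezf2 did not pass the filter, and so was not tested, in fits that left out a WT array. All 12 exceeded the filter level on at least 1 array.

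Most of the 36 genes were higher in KO mTECs. There were 24 called higher and 2 called lower (limma, adjusted p under 0.05), and 10 were not called. Among all genes tested 13% were called higher and 16.2% lower, together 29.2%. The median log2 change, KO minus WT, was 0.48 for the 36 genes, against -0.03 for all genes. All KO signals lay above all WT signals for 17 of the 36 genes, against 10.1% of all genes, and all below for 1, Tgm5, against 12% of all genes. A rise of at least 2-fold was called for 10 of the 36, against 1.19% of all genes. Every one of the 36 exceeded the 40th percentile of its array on all 10 arrays, so the filter on dim probe sets removed none. In sorted cells measured in bulk, more cells that express a gene and more RNA of it per cell cannot be told apart.

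**Figure D1:**
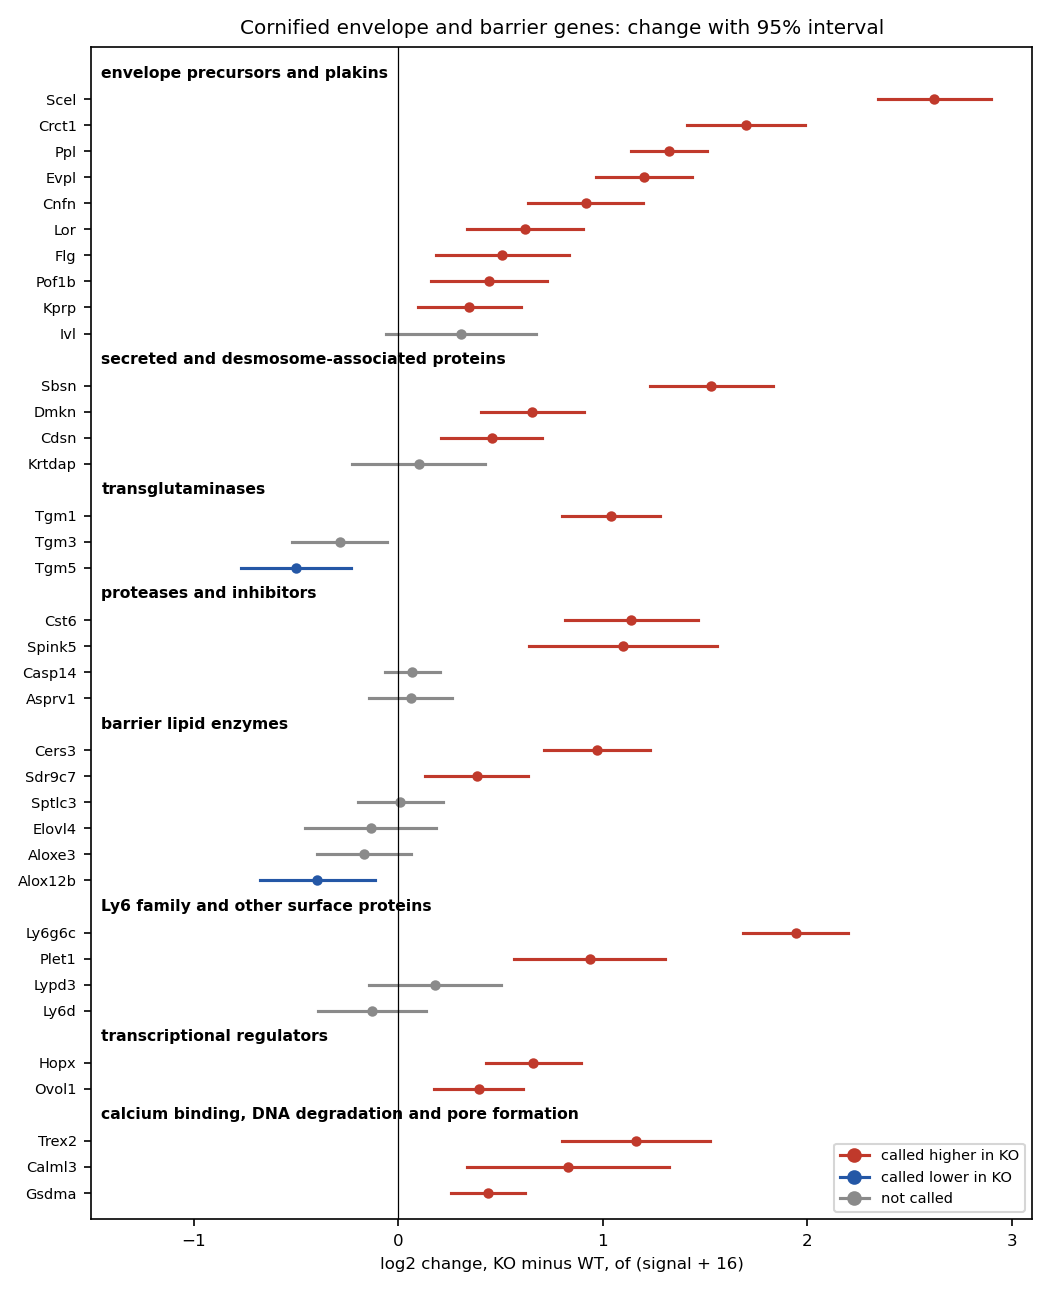
Log2 change (KO minus WT, of signal + 16) of each of the 36 genes, ordered by role, with points for the estimates and bars for 95% intervals (5 KO and 5 WT arrays). Scel, Ly6g6c and Crct1 lie farthest to the right with 2.62, 1.94 and 1.70, and Tgm5 and Alox12b are the 2 genes called lower.

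Promoter sequence was printed for the 2 genes with the largest rises, for the adjacent genes Sbsn, Dmkn and Krtdap, whose changes differed in size, and for Tgm5, which fell. The RefSeq promoter table of build GRCm38.p6 matched 25 of the 36 genes with 30 promoters, and the 250 bases before the annotated start are given 5′ to 3′. Capitals mark matches to TGANTCA, the binding motif of AP-1 (Fos and Jun proteins), and to TATAAA, the TATA box.
Scel, chr14:103513091-103513340, strand plus: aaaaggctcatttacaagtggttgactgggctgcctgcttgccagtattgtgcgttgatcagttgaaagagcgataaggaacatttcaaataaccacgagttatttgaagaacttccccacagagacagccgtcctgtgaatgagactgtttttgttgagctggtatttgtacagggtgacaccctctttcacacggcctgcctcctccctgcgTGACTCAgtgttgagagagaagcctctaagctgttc
Ly6g6c, chr17:35067075-35067324, strand plus: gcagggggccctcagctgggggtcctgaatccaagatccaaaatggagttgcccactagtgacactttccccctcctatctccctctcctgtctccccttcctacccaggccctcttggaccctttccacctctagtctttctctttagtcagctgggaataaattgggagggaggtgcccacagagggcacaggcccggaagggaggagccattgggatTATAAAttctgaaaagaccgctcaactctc
Sbsn, chr7:30751221-30751470, strand plus: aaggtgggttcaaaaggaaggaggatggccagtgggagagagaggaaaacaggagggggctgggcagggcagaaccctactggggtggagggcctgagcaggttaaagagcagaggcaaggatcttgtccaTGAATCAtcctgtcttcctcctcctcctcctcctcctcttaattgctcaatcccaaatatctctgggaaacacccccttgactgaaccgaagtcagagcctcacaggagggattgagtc
Dmkn, chr7:30763506-30763755, strand plus: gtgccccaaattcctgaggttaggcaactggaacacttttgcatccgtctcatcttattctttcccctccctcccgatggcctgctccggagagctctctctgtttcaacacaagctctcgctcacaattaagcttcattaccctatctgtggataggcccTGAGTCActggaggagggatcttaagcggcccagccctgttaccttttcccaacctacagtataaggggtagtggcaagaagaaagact
Krtdap, chr7:30787655-30787904, strand plus: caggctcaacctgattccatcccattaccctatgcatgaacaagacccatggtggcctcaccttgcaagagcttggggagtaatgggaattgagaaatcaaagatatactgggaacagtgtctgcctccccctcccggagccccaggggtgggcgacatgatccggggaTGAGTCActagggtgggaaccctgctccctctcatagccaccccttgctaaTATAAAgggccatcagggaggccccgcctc
Tgm5, chr2:121085842-121086091, strand minus: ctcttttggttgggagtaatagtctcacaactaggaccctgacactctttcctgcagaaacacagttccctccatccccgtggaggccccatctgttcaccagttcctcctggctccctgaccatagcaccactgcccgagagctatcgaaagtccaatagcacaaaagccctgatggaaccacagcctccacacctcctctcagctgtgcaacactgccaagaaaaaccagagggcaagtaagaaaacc

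The AP-1 motif TGANTCA stood in 10 of these 30 promoters, from the 8 genes Scel, Sbsn, Dmkn, Krtdap, Lor, Flg, Ivl and Plet1, that is in 33.3%, against 6.75% of the 32851 promoters in the table over the same window. Promoters of 1 gene were counted separately. Dmkn had 3, and its windows from 30763506 and 30763508 are nearly the same bases, so 1 site was counted more than once. By gene the match was found in 8 of 25. The match began 36 bases before the start in Scel, 48 bases before it in Lor and 116 bases before it in Ivl. Of the 8 genes with a match 6 were called higher and 2, Krtdap and Ivl, were not called. Of the 17 genes with a promoter and no match 9 were called higher and 2 lower. The TATA box TATAAA was found in 26.7% of the 30 promoters, against 12.4% of all, with its first base 30 bases before the start in Ly6g6c, Krtdap and Plet1.

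The same window was searched on both strands for 6 other motifs. The C/EBP motif TTGCNNAA was found in 36.7% of the 30 promoters and 9.56% of all promoters. By gene it was found in 9 of 25, and the overlapping Dmkn windows again counted 1 site more than once. The KLF motif CCACCC was found in 40% and 28.1%, and the ETS motif CCGGAA in 6.67% and 12%. The Grainyhead-like motif AACCNGTT, the OVOL motif CCGTTA and a paired CATG core of the p63 motif had no match in the 30 promoters and were found in 1.79%, 2.18% and 0.49% of all promoters. Such matches are descriptions of letters in a window. Binding was not measured.

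Among 10 genes grouped as envelope precursors and plakins 9 were higher and none was lower, with a median log2 change of 0.77. Of all genes tested 13% were called higher and 16.2% lower. Scel encodes sciellin, an envelope precursor. Its signals were 1689, 1369.8, 1656, 1272 and 1129.5 on KO 6 to KO 10, against 285, 192, 202, 209 and 199.6 on WT 1 to WT 5. The lowest KO array stood far above the highest WT array, WT 1. The change was 6.15-fold (log2 2.62, SE 0.13, adjusted p = 9.2e-08), the second largest rise among all genes tested. Crct1, a cysteine-rich protein encoded in the epidermal differentiation complex, had signals of 3059, 2136, 2599.8, 2022 and 1721 in KO cells, against 757, 721, 681, 601 and 669 in WT cells. The groups did not overlap (3.25-fold, log2 1.70, SE 0.13, adjusted p = 2.8e-06).

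The plakins periplakin and envoplakin, which pair and tie keratin filaments to the envelope, rose by similar amounts. Ppl had signals of 797, 739, 849, 693 and 659 in KO cells, against 302, 254, 326, 294 and 269.8 in WT cells (2.5-fold, log2 1.32, SE 0.09, adjusted p = 6.9e-07). Evpl had signals of 326, 274, 312, 226 and 243 in KO cells, against 120.2, 103, 92.1, 122 and 114 in WT cells (2.30-fold, log2 1.20, SE 0.11, adjusted p = 7.9e-06). Neither gene's groups overlapped. Cnfn, cornifelin, an envelope component, averaged 328 ± 76.7 in KO and 163 ± 12 in WT cells (SD, n = 5 each; log2 0.92), also without overlap.

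Of the classic major envelope proteins, loricrin and filaggrin transcripts were called higher and involucrin was not called. Lor encodes loricrin, the bulk protein of the epidermal envelope. Its signals were 1078, 992, 1272, 1023 and 871 in KO cells, against 547, 584, 672, 908 and 696 in WT cells. Only WT 4 reached into the KO range (1.54-fold, log2 0.62, SE 0.13, adjusted p = 0.0037). Flg encodes profilaggrin, whose products bundle keratin. It had signals of 216, 157, 259, 222 and 173 in KO cells, against 191, 137, 141, 109.7 and 119 in WT cells, with WT 1 inside the KO range (log2 0.51, SE 0.15, adjusted p = 0.0226). Its call was lost without KO 8 (adjusted p = 0.0590), KO 9 (0.0522), WT 4 (0.0598) or WT 5 (0.0559), and the adjusted p ranged from 0.0051 to 0.0598 over the fits that left out 1 array. Ivl, involucrin, an early scaffold of the envelope, was not called. Its signals were 455, 309, 301, 323 and 243 in KO cells, against 374, 269, 223, 224 and 214 in WT cells (log2 0.31, 95% interval -0.06 to 0.67, adjusted p = 0.19). WT 1 was the highest WT array of Ivl, and without it the change was 0.44 (adjusted p = 0.0392), while over the fits that left out 1 array the adjusted p ranged from 0.0392 to 0.38.

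Pof1b, an actin-binding protein of epithelial junctions, and Kprp, a proline-rich protein of keratinocytes, were grouped with the envelope precursors and plakins. They had the smallest called rises of that group, 0.45 and 0.35 on the log2 scale. Pof1b averaged 639.7 ± 139 in KO and 460.0 ± 56.1 in WT cells (SD, n = 5 each), and its groups overlapped through WT 1. Its call was lost without KO 8 (adjusted p = 0.0569), WT 2 (0.0517) or WT 4 (0.0530), with a range of 0.0105 to 0.0569 over the fits that left out 1 array. Kprp, at 67.3 ± 15.6 in KO and 48.8 ± 6.10 in WT cells, had its groups overlap through WT 4 and lost its call without KO 8 (0.0640), KO 9 (0.0744), WT 1 (0.0606), WT 2 (0.0701), WT 3 (0.0609) or WT 5 (0.0942), and with the Xist block (0.32, adjusted p = 0.0634). Over the fits that left out 1 array its adjusted p ranged from 0.0300 to 0.0942.

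Neighbouring genes of secreted epidermal proteins had changes of different size. Sbsn (suprabasin), Dmkn (dermokine) and Krtdap lie next to each other in this order on chromosome 7 in RefSeq. Sbsn had signals of 6103, 4872, 6063, 4915 and 4675 in KO cells, against 2563, 1942, 1430.3, 1667 and 1677 in WT cells, without overlap (2.89-fold, log2 1.53, SE 0.14, adjusted p = 8.4e-06). Dmkn had signals of 5067, 5105, 5935, 4834 and 4467 in KO cells, against 4167, 3511, 2585, 2936 and 3051 in WT cells, also without overlap (1.57-fold, log2 0.66, SE 0.12, adjusted p = 0.0012). Krtdap was not called. Its signals were 3127, 2509, 3174, 2729.9 and 2614 in KO cells, against 3879, 2978, 2189.8, 2341 and 2108 in WT cells (log2 0.10, 95% interval -0.22 to 0.43). WT 1 held the highest Krtdap signal of all 10 arrays. The 95% intervals of Sbsn, 1.23 to 1.83, and of Krtdap did not overlap, and the difference between the genes was not tested. Cdsn, corneodesmosin, the glue of the dead cell layers, averaged 104 ± 10.4 in KO and 72.1 ± 13.8 in WT cells (SD, n = 5 each; log2 0.46, adjusted p = 0.0092) without overlap.

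**Figure D2:**
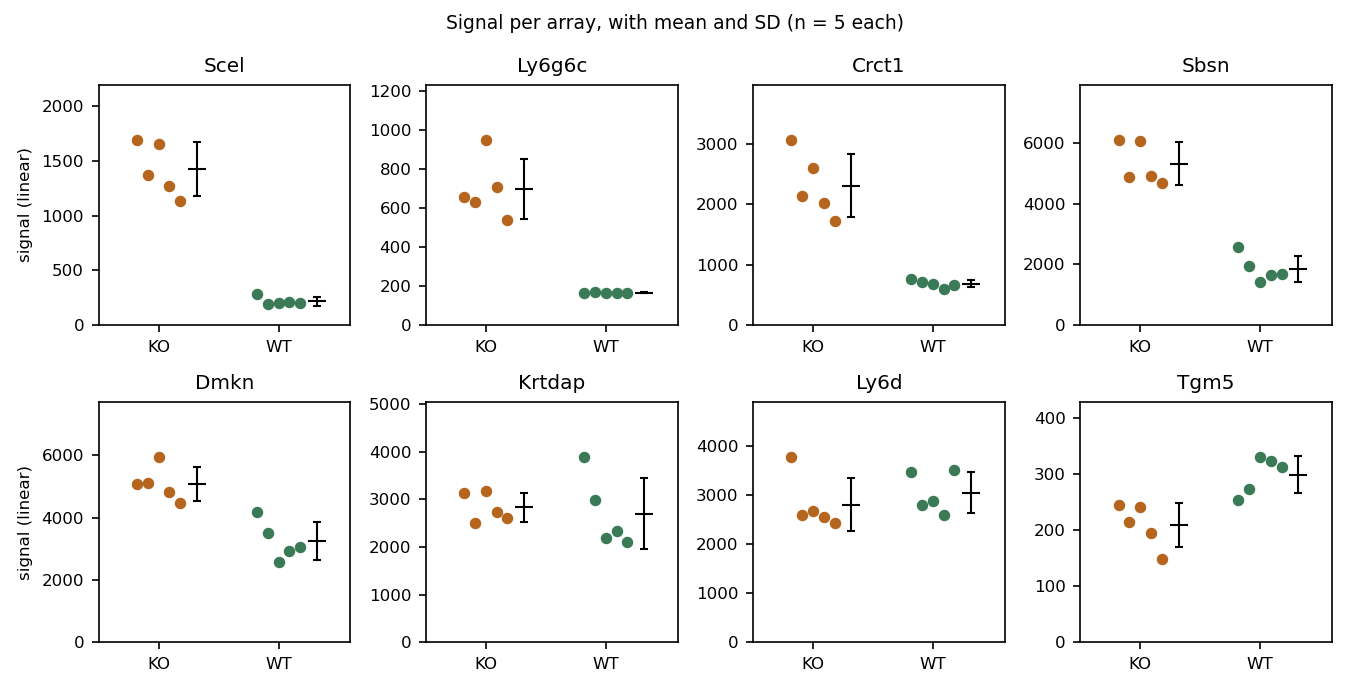
Linear signal of 8 of the genes on each KO array (left) and WT array (right), with the mean and SD beside the points (n = 5 each). Scel, Ly6g6c, Crct1, Sbsn and Dmkn do not overlap between genotypes, Krtdap and Ly6d do, and Tgm5 lies lower in KO.

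The transglutaminases, the enzymes that cross-link envelope proteins, were split 1 higher, 1 lower and 1 not called. Over all genes tested the shares were 13% higher and 16.2% lower. Tgm1, the membrane-bound enzyme of the epidermis, had signals of 266, 230.5, 277, 198 and 188 in KO cells, against 91.7, 93.3, 115, 111 and 107 in WT cells (2.06-fold, log2 1.04, SE 0.11, adjusted p = 2.9e-05). Tgm5 went the other way, with signals of 246, 215, 241, 195 and 148 in KO cells, against 255, 274, 330.2, 324 and 313 in WT cells (log2 -0.50, SE 0.12, adjusted p = 0.0098). Neither gene overlapped between genotypes, although KO 6 and WT 1 were close for Tgm5, with a log2 difference of -0.05 between them against -0.61 over the other 8 arrays. Tgm3, the enzyme of hair and upper epidermis, averaged 117 ± 9.72 in KO and 147 ± 25.0 in WT cells (SD, n = 5 each; log2 -0.29, 95% interval -0.52 to -0.05, adjusted p = 0.0624). Tgm3 passed without WT 3 (-0.35, adjusted p = 0.0232) or WT 5 (-0.34, adjusted p = 0.0370), with the Xist block (-0.32, adjusted p = 0.0444) and with array weights (-0.27, adjusted p = 0.0375), with a range of 0.0232 to 0.14 over the fits that left out 1 array.

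Both protease inhibitors were called higher, against 13% of all genes tested, and the proteases were not called. Cst6, cystatin M/E, an inhibitor of legumain and cathepsins, had signals of 6038, 4081, 4905, 3960.2 and 3371 in KO cells, against 2504, 2036, 2060.1, 1752 and 1642 in WT cells (2.21-fold, log2 1.14, SE 0.15, adjusted p = 1.5e-04). Spink5, which encodes LEKTI, an inhibitor of skin kallikreins, had signals of 2796, 1376, 1753, 1449 and 1369 in KO cells, against 1229, 733, 719, 647 and 668 in WT cells (2.14-fold, log2 1.10, SE 0.21, adjusted p = 0.0020). Neither inhibitor overlapped between genotypes, and KO 6 and WT 1 were the highest arrays of their groups for both. Asprv1, the retroviral-like protease that trims profilaggrin, averaged 2370.0 ± 343 in KO and 2254 ± 139 in WT cells (log2 0.06, 95% interval -0.14 to 0.26). Casp14, the caspase of cornifying cells, averaged 33.6 ± 2.45 in KO and 31.3 ± 3.17 in WT cells (SD, n = 5 each, log2 0.07, 95% interval -0.07 to 0.21). That probe set has a suffix of shared sequence. The other Casp14 probe set went the other way, at 14.3 in KO and 19.0 in WT cells (log2 -0.20, SE 0.07). It exceeded the filter level on 1 array only.

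Of 6 barrier lipid enzymes 2 were higher, 1 was lower and 3 were not called, with a median log2 change of -0.06. Among all genes tested 13% were called higher and 16.2% lower, so 1 lower of 6 lay near the share of all genes. Cers3, which makes the very long ceramides of skin, had signals of 119, 90.1, 125, 86.8 and 75.3 in KO cells, against 42.6, 38.9, 38.1, 40.4 and 50.2 in WT cells. All KO arrays were above all WT arrays (1.96-fold, log2 0.97, SE 0.12, adjusted p = 8.8e-05). The adjacent lipoxygenase genes Aloxe3 and Alox12b, whose enzymes oxidise those ceramides in sequence, had log2 changes of -0.17 (adjusted p = 0.26) and -0.39 (SE 0.13, adjusted p = 0.0379). Alox12b was dim, with signals of 32.4, 46.0, 63.4, 43.5 and 32.8 in KO cells, against 49.0, 65.3, 61.0, 62.2 and 69.5 in WT cells. KO 8 lay inside its WT range. Alox12b kept its call without KO 8 or without WT 1. It lost it in the other 8 leave-one-out fits, those without KO 6 (adjusted p = 0.0756), KO 7 (0.0557), KO 9 (0.0633), KO 10 (0.0861), WT 2 (0.0776), WT 3 (0.0646), WT 4 (0.0733) or WT 5 (0.0864), in a range of 0.0052 to 0.0864.

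Sdr9c7, a dehydrogenase that acts on the oxidised ceramides, averaged 94.6 ± 9.99 in KO and 69.5 ± 14.8 in WT cells (SD, n = 5 each; log2 0.38, adjusted p = 0.0258), with WT 1 inside the KO range. It lost its call without KO 8 (adjusted p = 0.0673), WT 3 (0.0594) or WT 4 (0.0676), and the range over the fits that left out 1 array was 0.0082 to 0.0676. Elovl4, which elongates very long fatty acids, and Sptlc3, a subunit of the enzyme that starts sphingolipid synthesis, had log2 changes of -0.13 (95% interval -0.45 to 0.19) and 0.01 (95% interval -0.20 to 0.22).

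Of the Ly6 family and other surface proteins 2 of 4 were higher, against 13% of all genes tested. Ly6g6c, a GPI-anchored Ly6 protein, had signals of 653, 630.4, 947, 707 and 537 in KO cells, against 166, 169, 162, 167 and 164 in WT cells. Its WT arrays were nearly equal and its KO arrays all far above them (3.85-fold, log2 1.94, SE 0.12, adjusted p = 4.2e-07), and its weaker probe sets gave 1.53 and 1.52. Ly6d, a family member known from keratinocytes and lymphoid progenitors, had signals of 3771, 2602, 2685, 2563 and 2425 in KO cells, against 3474, 2807, 2877, 2589 and 3512 in WT cells (log2 -0.13, 95% interval -0.39 to 0.14). KO 6 was its highest array. Lypd3, a Ly6-domain protein of suprabasal skin, was not called either, at 129 ± 28.9 in KO and 112 ± 25.2 in WT cells (SD, n = 5 each; log2 0.18, 95% interval -0.14 to 0.50).

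Plet1, a surface protein first known from placenta and from thymic epithelial progenitors, had signals of 2332, 1447, 1833, 1389.8 and 1343 in KO cells, against 779.7, 707, 1206, 883 and 732 in WT cells. WT 3 was its highest WT array and still below all KO arrays (1.91-fold, log2 0.94, SE 0.17, adjusted p = 0.0014). A second probe set gave 1.00, while another, dim one with signals of 43.6 to 57.4 gave 0.07. That dim probe set was the one left when probe sets with suffixes of shared sequence were set aside, and the call was then lost (adjusted p = 0.50, in a range of 4.6e-04 to 0.50 over all alternatives).

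Both transcriptional regulators were called higher, against 13% of all genes tested. Hopx, an atypical homeodomain protein that does not bind DNA itself, had signals of 3437, 2427, 2590.4, 2572 and 2168 in KO cells, against 1759, 1488, 1785, 1688 and 1518 in WT cells (1.58-fold, log2 0.66, SE 0.11, adjusted p = 6.5e-04). Ovol1, a zinc finger transcriptional repressor that acts in epidermal differentiation, had signals of 222, 189, 179, 172 and 145 in KO cells, against 119, 127, 144, 131 and 145 in WT cells (log2 0.39, SE 0.10, adjusted p = 0.0104). Hopx did not overlap between genotypes, and the lowest KO array of Ovol1, KO 10, lay level with WT 5. A weaker probe set of Ovol1 gave a smaller change of 0.18 (SE 0.11), and a weaker one of Hopx gave 0.84.

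The remaining 3 genes were all higher, against 13% of all genes tested. Trex2, an exonuclease of keratinocytes that breaks down nuclear DNA, had signals of 202, 99.0, 144, 139 and 98.6 in KO cells, against 53.6, 52.3, 54.2, 56.5 and 35.9 in WT cells (2.24-fold, log2 1.17, SE 0.17, adjusted p = 2.7e-04). Gsdma, a pore-forming gasdermin of skin, averaged 249 ± 30.2 in KO and 179 ± 12.7 in WT cells (SD, n = 5 each; log2 0.44, adjusted p = 0.0020), with a weaker probe set at 0.62. Neither gene overlapped between genotypes. Calml3, a calmodulin-like protein of epithelia, had signals of 2087, 1322, 1636, 1501 and 1117 in KO cells, against 1589, 742, 681, 762 and 666 in WT cells. Its overlap came from WT 1, and the log2 change was 0.83 over all arrays (SE 0.23, adjusted p = 0.0159) and 0.94 without WT 1 and KO 6.

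The 36 genes did not vary evenly among the KO arrays. KO 6 was the highest KO array for 20 of them and KO 8 for 15, together 35 of 36, while among all genes tested 1 of these arrays was the highest for 45.9%. KO 10 was the lowest KO array for 25 of the 36, against 21.4% of all genes. Among WT arrays WT 1 was the highest for 16 of the 36, against 19.9% of all genes. The median level of the 36 genes relative to each gene's WT mean was 0.67 on KO 6, 0.43 on KO 7, 0.73 on KO 8, 0.54 on KO 9 and 0.37 on KO 10 on the log2 scale, against -0.08 to 0.12 on WT arrays. KO 6 and KO 8 were also the KO arrays with low Xist, and KO 6 and WT 1 those with the highest spike-in and 18S signals. Without WT 1 and KO 6 there were 25 genes higher, which held all 24 of the full set, and the same 2 lower. With the presence of Xist signal as a block 23 were higher, without Kprp, and 3 lower, with Tgm3. All 26 called genes had the same sign in the difference between KO 6 and WT 1 alone. Both arrays were part of the fit that called these genes, so the shared sign is no separate support. The difference was small for Tgm5 (-0.05) and Sdr9c7 (0.06). The part of these array differences in the spread was not tested.

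**Figure D3:**
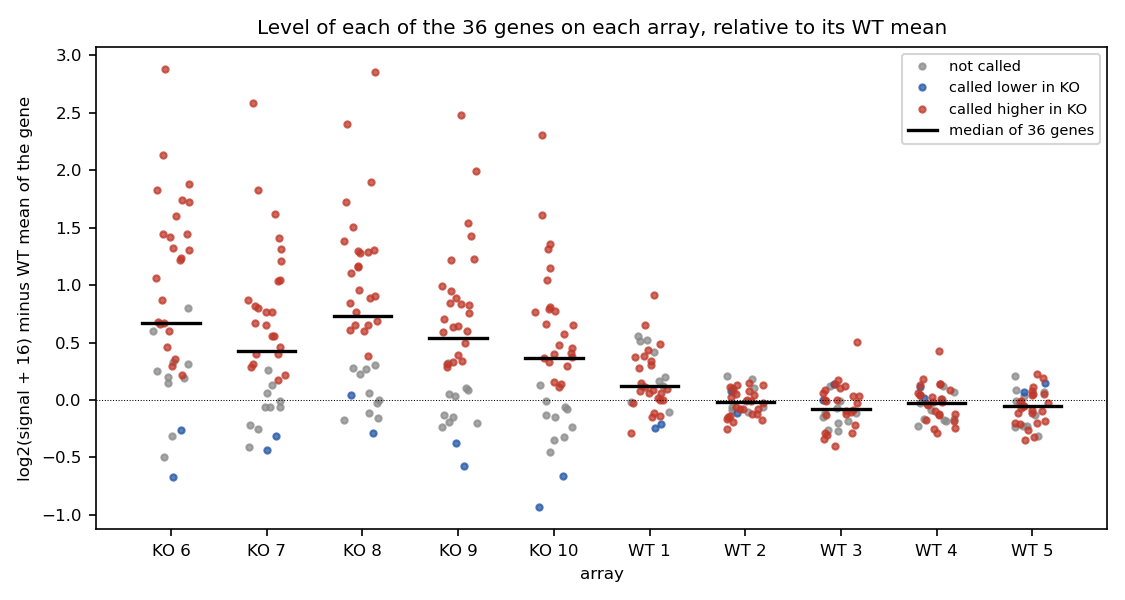
Level of each of the 36 genes on each array as log2(signal + 16) minus the gene's WT mean, coloured by its call, with black bars for the median of the 36 genes. The medians run from 0.37 to 0.73 on KO arrays and from -0.08 to 0.12 on WT arrays, with KO 6 and KO 8 highest.

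Several of the genes sit in the epidermal differentiation complex, a cluster on chromosome 3 that also holds the Sprr and Lce families. Of 59 protein-coding RefSeq genes from S100a9 to S100a10, an interval chosen with the values known, 34 were tested, 13 were higher and none was lower, with a median log2 change of 0.33. When 1 array was left out 11 to 17 were higher and 0 to 3 lower, with 3 lower without WT 1, namely Lce1b (-0.43), Lce1c (-0.55) and Lce1d (-0.43). Lce1b was also lower without KO 6, Lce1c without KO 7 or KO 8, and Sprr2i (-0.67) without KO 6. These 34 include 5 of the 36 genes, of which Lor, Kprp, Crct1 and Flg were higher. Of the 29 others 9 were higher (31.0%, against 13% of all genes tested), namely Sprr2d, Sprr2f, Sprr2k, Sprr3, Sprr1a, Hrnr, Rptn, Tchh and S100a10. Calls were not evenly placed. Crct1, at 1.70, stood among Lce genes, of which none was called over all arrays, while without KO 10 Lce3a (0.71), Lce3c (0.39) and Lce3f (0.70) were higher, and Lce3f also without KO 9.

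**Figure D4:**
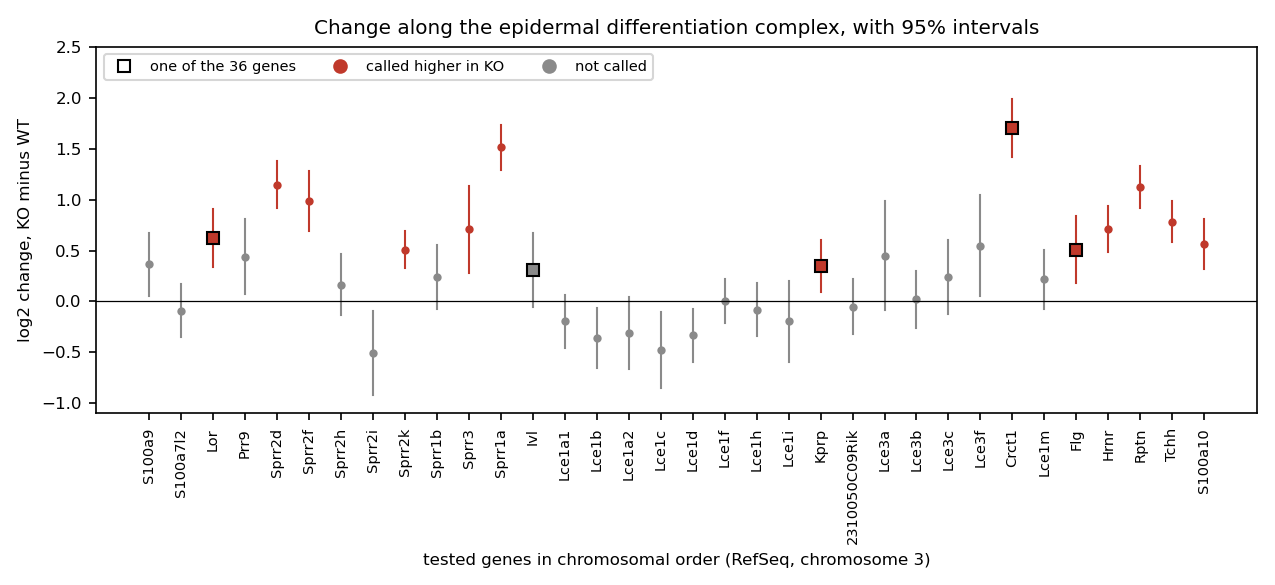
Log2 change (KO minus WT) with 95% intervals of the 34 tested genes from S100a9 to S100a10 on chromosome 3, in RefSeq order and not to scale, with squares for the 5 that belong to the 36 genes. Genes called higher lie to the left and right of a long run of Lce genes that were not called, within which Kprp and Crct1 were.

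Other cornification genes gave a mixed picture. Of 73 tested from a list of 85, 27 were higher (37.0%) and 13 lower, with a median log2 change of 0.16. Sprr2d, Sprr2f, Sprr2k, Sprr3, Sprr1a, Hrnr, Rptn and Tchh, already named for the chromosome 3 interval, are counted again among the 27. Among all genes tested 13% were called higher and 16.2% lower, so the lower calls lay near the share of all genes. Among Sprr genes, further envelope precursors, 5 of 8 were higher and none lower, with Sprr2d at 1756 ± 243 in KO and 782 ± 95.6 in WT cells (SD, n = 5 each; log2 1.15) and Sprr1a at a log2 change of 1.51. Of 9 Lce genes, late envelope proteins, none was called over all arrays, and up to 2 were higher and up to 2 lower when 1 array was left out. Of 8 desmosome genes 6 were higher and 2, the plakophilins Pkp1 and Pkp3, lower. When 1 array was left out 5 to 6 were higher and 1 to 2 lower. Dsc1, a desmocollin (log2 0.43), kept its call without KO 9, KO 10 or WT 1 and lost it without each other array (adjusted p up to 0.0852) and with the Xist block (0.0557). Pkp1 (log2 -0.22) lost its call without KO 8, KO 9, KO 10, WT 1, WT 4 or WT 5 (adjusted p up to 0.0796). Perp, a desmosome-associated p63 target, averaged 3738 ± 305 in KO and 1958 ± 99.4 in WT cells (SD, n = 5 each; log2 0.93, adjusted p = 1.1e-06). Among 8 differentiation keratins 3 were higher, with Krt80 at 1.05, and 4 lower, with Krt10 at -2.47 and Krt1 at -1.37. Krt77, 1 of the 4 (log2 -0.24), kept its call without KO 7, KO 9 or WT 3. It lost it without each other array (adjusted p up to 0.11) and with the Xist block (0.0565). Of 6 skin kallikreins, a family with several members that LEKTI inhibits, none was higher over all arrays and Klk5, Klk7 and Klk8 were lower, with log2 changes of -0.50, -0.52 and -0.43. Klk10 was higher without WT 2 (0.20, adjusted p = 0.0178). Of 11 further lipid barrier genes 2 were higher and 2 lower. Of the 23 genes left 11 were higher and 2 lower, among them Rptn, repetin, a relative of filaggrin, at 4433 ± 417 in KO and 2035 ± 282 in WT cells (SD, n = 5 each; log2 1.12), and Tchh, trichohyalin, at 372 ± 33.0 and 209.8 ± 25.4 (log2 0.79).

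**Figure D5:**
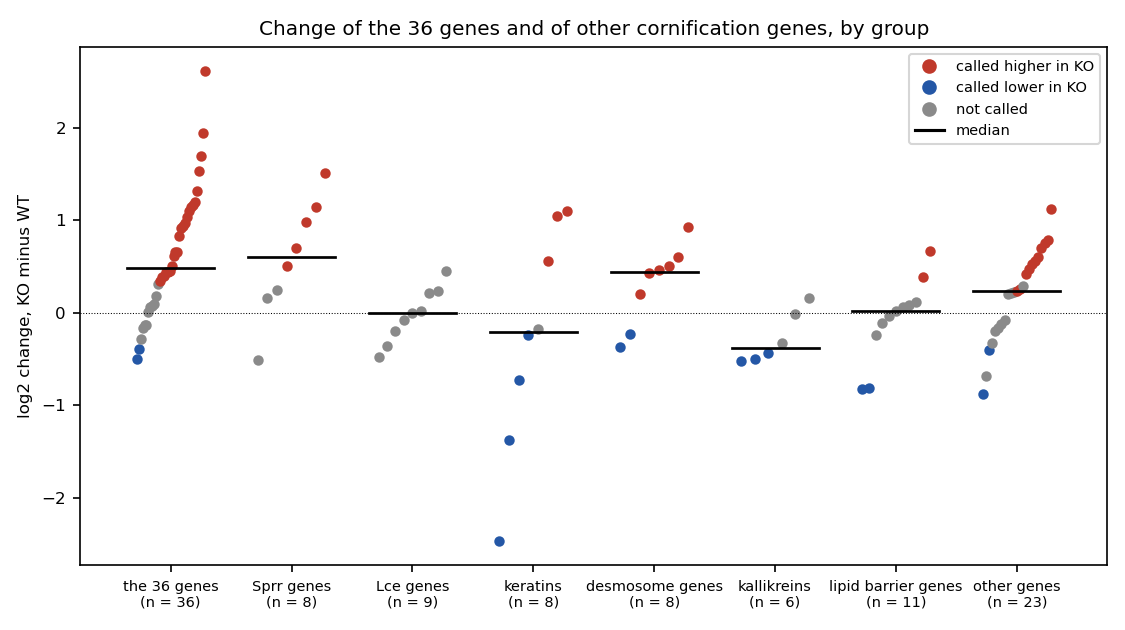
Log2 change (KO minus WT) of the 36 genes and of 73 other cornification genes in 7 groups, 1 point a gene coloured by its call, with bars for group medians. The medians are 0.48 for the 36 genes, 0.61 for Sprr genes, 0.003 for Lce genes, -0.21 for keratins, 0.45 for desmosome genes and -0.38 for kallikreins.

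Of 35 tested regulators of epidermal differentiation 10 were higher (28.6%) and 4 lower, with a median log2 change of 0.08, against 13% higher and 16.2% lower of all genes. Grhl1, a Grainyhead-like factor of desmosomal genes, had signals of 1254, 1122, 1430.1, 1177 and 1119 in KO cells, against 564, 592, 495, 550.2 and 528 in WT cells (2.20-fold, log2 1.13, SE 0.08, adjusted p = 1.1e-06). Its groups lay far apart, and its relatives Grhl2 and Grhl3 had changes of 0.38 (adjusted p = 9.2e-04) and -0.13 (adjusted p = 0.25). Prdm1, the repressor Blimp1, averaged 100.1 ± 37.6 in KO and 41.7 ± 7.48 in WT cells (log2 0.96), Notch3 171 ± 5.57 and 97.6 ± 19.4 (log2 0.73), and the Notch target Hes1 348 ± 89.3 and 210.1 ± 22.4 (log2 0.66). Notch1 was lower, at 793 ± 47.2 in KO and 1016 ± 147 in WT cells (log2 -0.34, adjusted p = 0.0121), with all KO arrays below all WT arrays, and Notch2 was not called (log2 0.16, adjusted p = 0.34). Cebpb and Rxra were lower too, by the fit over all arrays, with log2 changes of -0.58 and -0.25. Cebpb lost its call without KO 7, KO 8, KO 9, KO 10, WT 1 or WT 2 (adjusted p up to 0.0744), and Rxra without KO 7, KO 10, WT 2, WT 3 or WT 4 (up to 0.0680). Zfp750, a terminal differentiation factor, and the repressor Bach2 rose by 0.59 and 0.51. Vdr, the vitamin D receptor, was the regulator with the largest called fall, at 431 ± 25.6 in KO and 717 ± 61.9 in WT cells (SD, n = 5 each; log2 -0.71, adjusted p = 1.9e-05). Trp63 and Klf4 had changes of -0.30 (adjusted p = 0.0669) and 0.49 (adjusted p = 0.0241), and Klf4 lost its call without WT 3 (0.0588) or WT 4 (0.0613).

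Markers of other cells moved in both directions beside the 36 genes. Among all genes tested 13% were called higher and 16.2% lower. Of 12 basal keratinocyte genes 5 were lower, Col17a1 most with a log2 change of -1.42, and Krt5 was higher with 0.71. When 1 array was left out 3 to 7 were lower. Krt14 (log2 -0.42) kept its call without KO 10, WT 1 or WT 2 and lost it without each other array (adjusted p up to 0.11) and with the Xist block (0.0697). Itga3 (log2 -0.39) lost it without KO 6, KO 7, KO 8, WT 3, WT 4 or WT 5 (up to 0.0713). The summed signal was 8997 to 9972 in KO and 7663 to 11116 in WT cells. Of 8 myeloid markers tested 4 were lower and 1 higher. Sums over the 9 on the array were 3774 to 4820 in KO and 5819 to 6211 in WT cells. Most of each sum was Lyz2, which averaged 3187 in KO and 4291 in WT cells. Of 4 genes listed for Langerhans cells Cd207 and Cd1d1 were lower, with sums of 615 to 843 in KO and 1197 to 1288 in WT cells. Cd1d1 averaged 264 in KO and 624 in WT cells, and Cd207 107 and 180. Zbtb46 (log2 -0.12) and Ptprc (log2 -0.18), which is also in the myeloid list, were not called. Of 5 endothelial markers tested 4 were higher. Sums over the 6 on the array were 706 to 854 in KO and 414 to 586 in WT cells. Tie1 was below the filter level on all arrays. Pecam1, 1 of the 4, exceeded that level on 5 KO arrays and 1 WT array, so it passed the filter through its KO signals. Cdh5 and Kdr were lower on KO 6 than on WT 1 (log2 -0.23 and -0.21), while Pecam1 and Vwf were higher (0.21 and 0.76). Of 8 thymocyte markers none was called, with sums of 582 to 1231 in KO and 809 to 1066 in WT cells. Of 7 fibroblast markers 2, Dcn and Lum, were higher (sums of 2682 to 3490 in KO and 2507 to 3164 in WT cells). Dcn (log2 0.30) lost its call without WT 2 (adjusted p = 0.0638), WT 3 (0.0584) or WT 4 (0.0524). Of 3 B cell markers tested 1 was higher and 1 lower, with Pax5 below the filter level. B cell sums over the 5 on the array were 317 to 345 in KO and 388 to 445 in WT cells. Of 3 melanocyte markers tested 1 was lower, with Mlana below the filter level. Melanocyte sums over the 6 on the array were 237 to 298 in KO and 265 to 334 in WT cells. The part of other cells in the changes of the 36 genes was not tested.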

How the data were processed

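The authors deposited a linear intensity for each probe set of an Affymetrix array. The submitters' processing notes name MAS5 and give no version, scaling target or background step. No deposited intensity was below 5.49. The highest correlation between arrays was 0.997 and the lowest 0.975, so no deposited column was a copy of another. Correlation cannot show whether arrays were technical repeats. The platform annotation gave 1 gene for 34958 of 45101 probe sets, several for 932 and none for 9211, and 34754 were named through RefSeq (GRCm38.p6).

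Probe sets above the 40th percentile of their own array on at least 5 arrays were kept, with 1 per gene by the highest mean. Log2(value + 16), on which every fold change stands, was fitted as KO minus WT with limma 3.58.1 in R 4.3.3 (lmFit, eBayes with trend and robust estimation), and p-values were adjusted over all 14087 genes by Benjamini-Hochberg, threshold 0.05. The offset understates changes of dim genes. For arrays, their number limits the precision.

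The members, gene lists, marker lists and motifs were chosen with earlier results of these data known. Named were Fezf2, every member, and the 8 other cornification genes and 8 regulators of smallest adjusted p under 0.05. Other names complete a description and were chosen after their values were seen. Alternatives were offsets 1 and 64, quantile normalization, median centring, no filter, a 60th percentile filter, mean of probe sets, no shared-sequence probe sets, eBayes without trend, array weights, a threshold of 0.01, WT 1 and KO 6 left out or as a block, an Xist block, and each array left out.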

Additional observations from a re-analysis of the deposited data

Results flagged for a closer look

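In 72 sets of 5 values, 1 for each of the 36 genes in each genotype, 7 had a highest or lowest array far from the others, with a gap of over 0.71 of the whole range. Chance gives about 1 in 20. In KO cells, Ly6d was 3771 on KO 6, against 2425 to 2685 on the other KO arrays, and Sdr9c7 was 112 on KO 8, against 86.8 to 93.2. In WT cells 4 of the 7 were high on WT 1. Scel was 285 there, against 192 to 209 on the other WT arrays, Spink5 1229 against 647 to 733, Calml3 1589 against 666 to 762, and Elovl4 403 against 239 to 275. Trex2 was 35.9 on WT 5, against 52.3 to 56.5 on the other WT arrays. Leaving out WT 1 and KO 6 together kept the calls of Scel, Spink5 and Calml3, with log2 changes of 2.65, 1.08 and 0.94, and Ly6d and Elovl4 stayed without a call at -0.19 and -0.09. WT 1 also had high spike-in and 18S signals, and the part of these in its values was not tested.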

How the results depend on the processing

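Of the 26 called members, 15 kept direction and call in all 24 alternatives. Tgm1, Ppl and Hopx kept them in the 23 that tested them. The count of higher members was 20 to 24 when 1 array was left out, 25 with array weights and 18 at a threshold of 0.01. It was 23 of 33 tested with the 60th percentile filter, which left Kprp out. Without shared-sequence probe sets it was 20 of 32 tested. That setting left out Tgm1, Ppl, Hopx and Casp14, and Plet1 lost its call there. The count of lower members was 1 with the 60th percentile filter, where Alox12b was not tested, and 1 at a threshold of 0.01, and 1 to 2 when 1 array was left out. At 0.01 the counts over all genes were 1160 higher and 1313 lower. Leaving out 1 array gave 1507 to 1866 higher and 1824 to 2379 lower, 26 to 32 higher and 11 to 15 lower of the other cornification genes, and 8 to 10 higher and 2 to 4 lower regulators. Lower regulators numbered 7 with array weights and 1 at 0.01. The cause was not tested. The only direction that turned among named genes was that of Sptlc3, never called: -0.031 with array weights, -0.0387 without WT 1 and KO 6, -0.0165 with the Xist block, and -0.0683 to 0.0506 when 1 array was left out, below 0 without KO 6, KO 8, WT 2 or WT 4. Ivl passed with array weights (0.36), without WT 1 and KO 6 (0.32) and with them as a block (0.31, adjusted p = 0.0137, in a range of 0.0137 to 0.38). No paired analysis was possible because KO and WT arrays share no replicate numbers. Without detection calls, dim genes such as Casp14 and Alox12b cannot be set against background.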
